A study of Mus musculus with 46 samples.

Results

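Candidate cis-regulatory elements (cCREs) of the Nanog locus, each placed upstream of a promoter fragment of the same locus, were measured in a massively parallel reporter assay. Members were all constructs of the Nanog library with a cCRE first and a promoter second whose activity was above 0 in each of 3 biological replicates. They numbered 1256 of 1321 such constructs and of 91657 constructs in the series. The other 65 had a replicate at 0, with 20 in replicate 1, 52 in replicate 2 and 0 in replicate 3. The members joined 88 cCRE fragments (141 counting orientation) to 18 promoter fragments (32 counting orientation) in 573 fragment pairs. Fragment ends lay 450 bp apart on chromosome 6 (mm10, the same assembly as GRCm38). A construct is named here by its cCRE with its strand sign and then its promoter with its strand sign, so that E074+P017+ is cCRE E074 on the plus strand before promoter P017 on the plus strand.

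The cells were E14TG2a, a mouse embryonic stem cell line, kept in a medium of 2 kinase inhibitors and leukaemia inhibitory factor (2i+LIF). There was 1 condition, with no control group of cells. Each replicate was 1 nucleofection experiment with a mix of the Klf2, Nanog and negative control plasmid libraries, and RNA was taken after 24 h. The replicates received 1 plasmid pool, so their spread does not show how much plasmids of the same construct vary. Activity is the level of a construct's barcodes in reporter RNA (cDNA) divided by that in the plasmid input (pDNA), on a linear scale. The reporters sat on transfected plasmids and not in their chromosomal places.

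Nanog is a homeodomain transcription factor that helps to hold embryonic stem cells in the pluripotent state, together with OCT4 and SOX2. Enhancers are DNA elements that raise transcription from a promoter, and the stretch between Dppa3 and Nanog is known to hold enhancers active in embryonic stem cells. The surrounding locus also holds genes used elsewhere, such as the C-type lectins of the Clec4 family in myeloid cells, and genes used in most cells, such as M6pr, a receptor that carries enzymes to lysosomes.

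Of the promoter fragments, 9 contained a full RefSeq window of 250 bases before a listed gene start (GRCm38.p6). The 4 windows shown are those of the Nanog promoter and of 3 promoters among the highest pairs, with the strand on which each gene lies. Capitals mark letters found by search on both strands. In the Nanog window they mark TTTGCAT, which is most of an octamer bound by POU factors such as OCT4, and ACAATG, which is most of a SOX site, with 1 base between them. These letters were added to the search after the window had been read. They began 75 and 67 bases before the start. TTTGCAT was found in 4.12% of 32851 RefSeq promoter windows of this length, ACAATG in 10.7%, and both with 1 base between them in 2 windows. In the Clec4a1 window capitals mark TTTGCAT alone, 151 bases before the start. In the Apobec1 window they mark the reverse of the KLF motif CCACACCC, beginning 129 bases before the start and found in 3.20% of windows. Neither the octamer ATGCAAAT (1.60% of windows), the SOX motifs ACAATGG (3.02%) and AACAAAG (5.03%), the ESRRB motif AAGGTCA (4.08%) nor the SP and KLF motif GGGCGGG (23.4%) was in these 4 windows on either strand. TTTGCAT lies within the reverse of the octamer, and ACAATG within ACAATGG. The letters of the cCREs were not used here.
Nanog (P010), chr6:122707239-122707488, plus: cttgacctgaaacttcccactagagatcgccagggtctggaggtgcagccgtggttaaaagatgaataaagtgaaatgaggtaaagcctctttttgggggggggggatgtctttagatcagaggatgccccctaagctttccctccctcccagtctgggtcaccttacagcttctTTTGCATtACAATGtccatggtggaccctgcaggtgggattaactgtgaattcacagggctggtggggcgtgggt
Clec4a1 (P017), chr6:122921598-122921847, plus: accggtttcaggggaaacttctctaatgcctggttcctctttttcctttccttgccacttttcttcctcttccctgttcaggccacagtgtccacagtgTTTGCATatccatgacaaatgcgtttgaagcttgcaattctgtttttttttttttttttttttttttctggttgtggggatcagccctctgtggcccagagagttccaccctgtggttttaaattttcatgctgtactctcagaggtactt
Apobec1 (P007), chr6:122602445-122602694, minus: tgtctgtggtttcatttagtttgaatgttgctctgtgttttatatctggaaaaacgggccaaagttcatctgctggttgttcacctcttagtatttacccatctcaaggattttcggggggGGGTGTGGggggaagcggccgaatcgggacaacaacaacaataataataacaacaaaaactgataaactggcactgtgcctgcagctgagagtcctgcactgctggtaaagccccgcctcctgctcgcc
Clec4e (P025), chr6:123289872-123290121, minus: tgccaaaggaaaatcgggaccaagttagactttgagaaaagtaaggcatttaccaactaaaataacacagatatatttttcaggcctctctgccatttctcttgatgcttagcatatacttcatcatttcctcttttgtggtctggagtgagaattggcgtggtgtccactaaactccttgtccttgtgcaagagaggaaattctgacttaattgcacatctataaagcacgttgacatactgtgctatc

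Alone, the promoters fell into very unequal levels. The fragment at M6pr on the plus strand, P001+, had activities of 4.69, 4.51 and 3.91 in replicates 1, 2 and 3, and the same fragment on the minus strand had 0.333, 0.278 and 0.415. The Nanog promoter on the plus strand, P010+, which is the direction of the gene, had 0.789, 0.627 and 0.864. On the minus strand, P010- had 0.451, 0.341 and 0.522. The orientations of both fragments did not overlap. The fragment P002+, 259 bp from Phc1, had 0.320, 0.277 and 0.418. The other 27 oriented promoters had 0.0708 to 0.253 in replicate 1, 0.0144 to 0.213 in replicate 2 and 0.166 to 0.397 in replicate 3. These 27 include promoters at the deaminase gene Apobec1, at Dppa3, a gene of germ cells and early embryos, at the complement receptor C3ar1 and at 8 Clec4 genes.

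**Figure D1:**
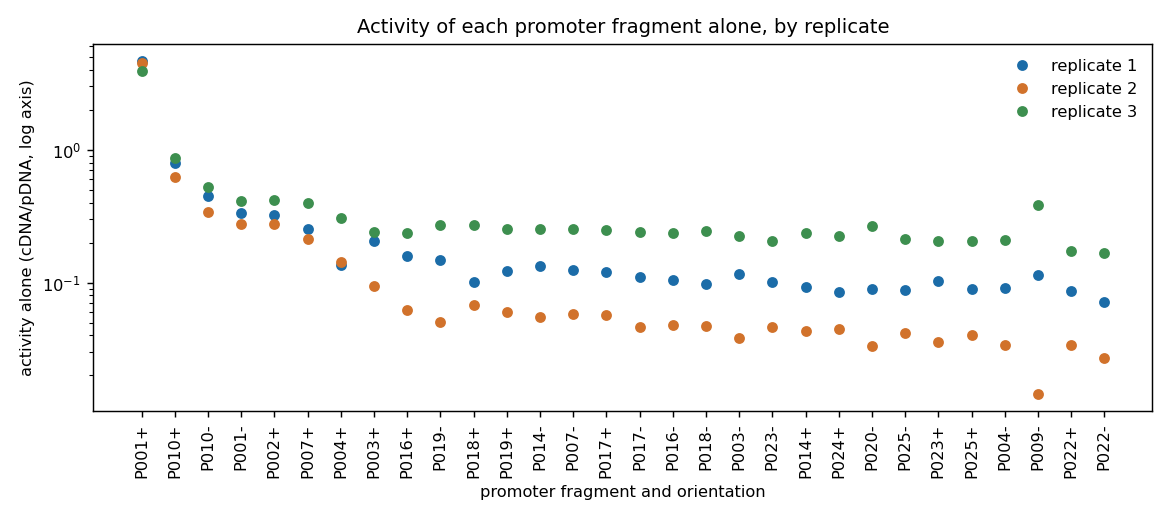
Activity of oriented promoter fragments alone (y axis, cDNA over pDNA, log scale) in the 3 replicates (points), ordered by mean log2 activity. P001+ sits between 3.91 and 4.69 and P010+ between 0.627 and 0.864. Most of the others lie near a lowest level that differs between replicates, with medians over all oriented promoters of 0.113, 0.0477 and 0.243.

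The lowest level differed between replicates, and this touches every difference from a weak promoter. The median over oriented promoters alone was 0.113, 0.0477 and 0.243 in replicates 1, 2 and 3, and over oriented cCREs alone it was 0.137, 0.0668 and 0.254. The log2 differences between pairs and promoters alone had SDs over members of 1.53, 1.99 and 1.05 in the same order. For the strong cCREs described next, the difference was largest in replicate 2 and, except for E136, smallest in replicate 3. All pairs with 1 oriented promoter also share its values alone. Depth per construct is unknown, since barcode numbers were not used here.

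Most pairs were not called different from the promoter alone, and a small set of cCREs raised many promoters strongly. With 3 replicates, a pair without a call is not shown to equal its promoter alone. Against the promoter alone in the same replicate, 209 of 1256 pairs were higher and 42 were lower (limma with Benjamini-Hochberg adjustment over the mix, adjusted p under 0.05). Over all pairs of the Klf2 and Nanog mix 20.6% passed, with 8.16% higher and 12.4% lower. Among the Nanog pairs 16.6% were higher and 3.34% lower. The median difference was -0.06 on the log2 scale, and 187 pairs were at 2 or more. Without replicate 1, 2 or 3 in turn, 0 pairs passed adjustment, and with replicates unpaired 178 were higher and 14 lower. The count of lower pairs was 71 where only promoters above a minimum alone entered the fit.

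A group of 9 cCREs with mean differences of 1 or more held 157 of the 209 higher pairs (75.1%) and 0 of the 42 lower ones. This threshold was set after the values had been seen. The 9 cCREs entered 223 pairs. The other 79 cCREs entered 1033 pairs, with 52 higher, 42 lower and a median difference of -0.20. Averaged over promoter fragments, 77 cCREs with at least 3 promoters could be tested. Of these 15 were higher and 22 lower by limma with Benjamini-Hochberg adjustment, beside 51.3% of all cCREs of the mix called, 14.1% higher and 37.2% lower.

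E073 and E074 had the highest mean differences, and they lie next to each other just upstream of Nanog. E073 spans chr6:122702445-122702895, with its centre at -4.8 kb from the Nanog start, outside any protein-coding gene. E074 spans chr6:122702829-122703279 and overlaps E073 by 66 bp, so the values of both share sequence. Alone, E073 had activities of 3.52, 3.72 and 3.41 averaged over its orientations, and E074 had 3.26, 3.24 and 2.99. Both were below the 3.91 to 4.69 of P001+ alone and above every other promoter alone. Upstream of 11 promoter fragments, E073 gave log2 differences of 3.48, 4.73 and 2.78, a mean of 3.66 ± 0.99 (SD, n = 3 replicates; adjusted p = 3.23e-14, limma). Upstream of 17 promoter fragments, E074 gave 3.33, 4.75 and 2.51, a mean of 3.53 ± 1.13 (SD, n = 3; adjusted p = 2.26e-13, limma). Of their pairs, 24 of 26 with E073 and 48 of 56 with E074 were higher than the promoter alone. Adjusted p of cCRE means, here and below, rest on variances drawn towards a value shared by all cCREs of the mix. The standard errors so obtained were 0.226 for E073 and 0.241 for E074. These p therefore do not measure the printed SDs of 3 replicates.

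E064 was the next most widely measured of the strong cCREs. It spans chr6:122662793-122663243, at -44.5 kb from the Nanog start, outside genes and 32522 bp from Dppa3, the nearest one. Alone it had activities of 2.13, 2.25 and 2.25. Upstream of 15 promoter fragments it gave log2 differences of 3.03, 4.11 and 2.34, a mean of 3.16 ± 0.89 (SD, n = 3; adjusted p = 2.26e-13, limma), and 36 of 43 pairs were higher. E073, E074 and E064 together held 108 of the 209 higher pairs.

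The other strong cCREs lay farther from Nanog. E005, 1850 bp from the polycomb gene Phc1 and at -365.2 kb from the Nanog start, had a mean difference of 3.21 ± 0.69 (SD, n = 3) with 3 promoter fragments, and 5 of 5 pairs were higher. E090, inside the glucose transporter gene Slc2a3 at 63 kb from the Nanog start, had 2.30 ± 0.80 with 12 promoter fragments. E116, 1026 bp from Clec4a1, had 1.98 ± 0.68 with 10. E136, 5167 bp from Clec4d, had 1.75 ± 0.80 with 10, and E134, 7005 bp from Clec4b2, had 1.30 ± 0.64 with 8. All 5 were higher in each replicate, with adjusted p of 3.21e-06 or less by limma. The ninth, E043 inside Apobec1, had 1.18 ± 0.26 with 3 promoter fragments, ranging from 0.33 to 2.35 between them. A further 3 cCREs reached 3.40 (E023), 3.08 (E122) and 2.58 (E138) with 1 promoter fragment each and were not tested at this level.

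**Figure D2:**
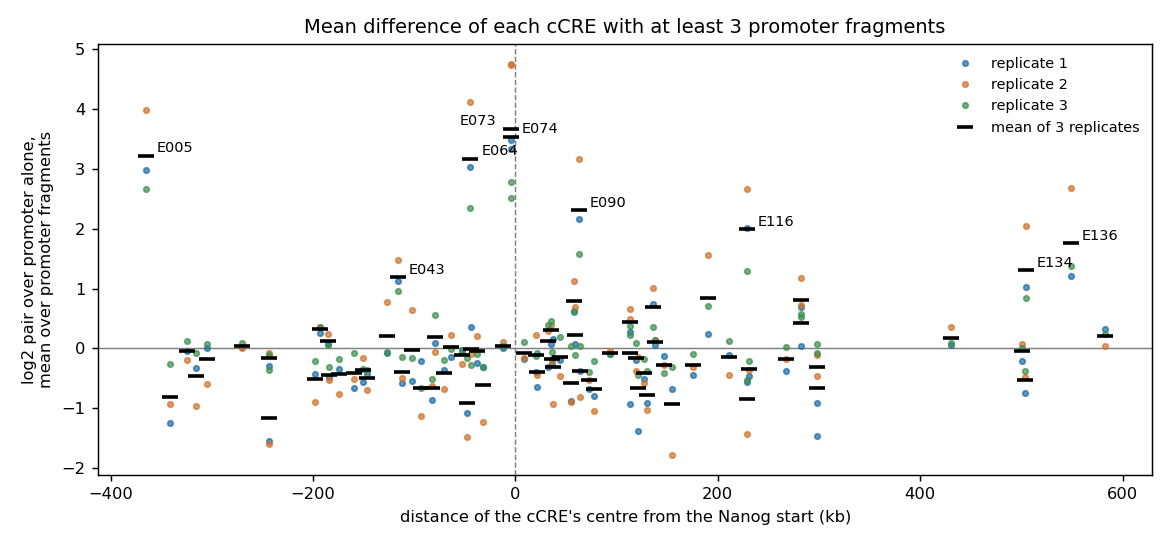
Mean log2 difference between pair and promoter alone (y axis) of each of the 77 cCREs with at least 3 promoter fragments, against the distance of its centre from the Nanog start (x axis, kb). Points are replicates and bars are means of 3, and the 9 cCREs at 1 or more are named. E073 and E074 sit beside the start, E064 at -44.5 kb and E005 at -365.2 kb, and most of the others lie around 0.

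The cCREs were then grouped by distance from the Nanog promoter fragment. Within 10 kb of the Nanog promoter fragment lay 3 cCREs. E073 and E074 were higher, and E075, 8.5 kb downstream, had differences of -0.18, -0.16 and 0.11, a mean of -0.08 ± 0.16 (SD, n = 3; adjusted p = 0.712, limma). From 10 to 100 kb, 27 cCREs had a median of -0.11, with 3 higher and 7 lower. Beyond 100 kb, 47 had a median of -0.16, with 10 higher and 15 lower. The gap in the genome between a strong cCRE and its promoter went with the difference in no single direction. E073 gave 3.66 with its nearest promoter, that of Nanog, 4.22 kb away, and 3.53 with its farthest, that of Clec4e, 587 kb away. E074 gave 3.08 with its nearest, also that of Nanog, and 4.12 with its farthest. Leaving out M6pr, the Pearson r between gap and difference over promoter fragments was -0.39 for E073 (10 fragments), 0.005 for E074 (16), 0.05 for E064 (14), 0.03 for E090 (11) and 0.34 for E116 (9). These are descriptions over promoters that share a cCRE.

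The activity of a cCRE alone and its mean difference went together. Over the 77 cCREs the Pearson r between log2 activity alone and mean difference was 0.92 and Spearman's rho 0.72. The points share replicates and a lowest level. Of these 77, 8 had at least 0.5 alone in each replicate, averaged over orientations, and all 8 had a mean difference of 1 or more. Of the other 69, 1 did, E043, whose activities alone were 0.349, 0.249 and 0.438. Averaging over orientations leaves out E031, whose minus orientation had 0.880, 0.708 and 0.897 alone and whose plus orientation had 0.201, 0.102 and 0.299. Its mean difference was 0.12 with 6 promoter fragments, and 1 of its 15 pairs was higher. Of the cCREs with fewer promoters that were also active alone, E015 and E098 did not reach 1. E098 had 1.88, 1.61 and 1.48 alone and a difference of 0.23 with 1 promoter fragment, and E015 had 0.590, 0.552 and 0.671 alone and 0.26 with 2. The value of 0.5 was set after the data had been seen.

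The highest single pairs joined E074, E064 and E073 to promoters of low activity alone, several of them at Clec4 genes. Fragments at Clec4 genes also entered many members, such as 132 with P022 at Clec4b2 and 208 with P023 at Clec4n. The share of Clec4 genes among the highest pairs was not tested against this. E074+P017+, with the promoter of Clec4a1 in gene direction, had activities of 4.79, 6.15 and 5.83, against 0.121, 0.0574 and 0.250 for P017+ alone. That was a log2 difference of 5.53 ± 1.12 (SD, n = 3). E064-P017+ had 2.76, 4.31 and 4.19, a difference of 4.94 ± 1.14. With the Clec4e promoter in gene direction, E064-P025- and E074+P025- differed from the promoter alone by 4.92 and 4.90. The pair E074+P007+, with the promoter of Apobec1 against gene direction, reached 7.34, 7.37 and 8.58 from 0.253, 0.213 and 0.397 alone, a difference of 4.80 ± 0.34. The others of the 8 highest were E073-P017- at 4.84, E073+P003- at 4.71 and E064-P004+ at 4.67. The replicates of these pairs stayed above those of their promoters alone without overlap.

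**Figure D3:**
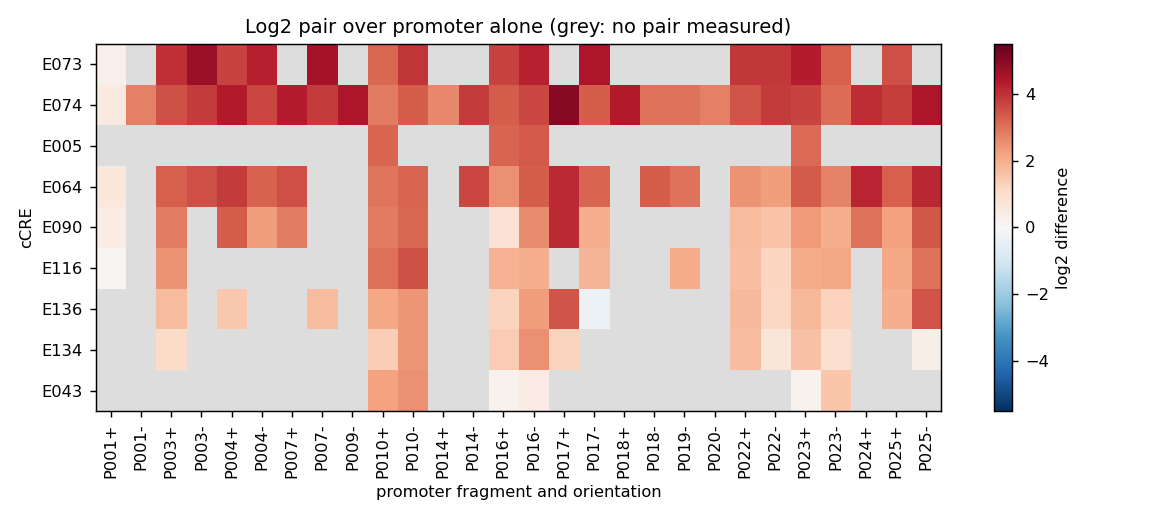
Log2 difference between pair and promoter alone, mean of 3 replicates and of the cCRE's orientations (colour), for the 9 strong cCREs (rows) with oriented promoters (columns); grey marks combinations with no value. The P001+ column is nearly white, with values from 0.11 to 0.58, while E074 with P001- is at 2.76.

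With the Nanog promoter, cCREs active alone mostly gave pairs more active than either fragment alone. This class goes by the activity of each orientation and is not the set of 9 strong cCREs. In 23 pairs of P010 with cCREs active alone (at least 0.5 in each replicate for that orientation), the median activity was 5.13 and the median difference from P010 alone was 3.15. Of these, 21 were higher than the promoter alone. E073+P010+ had 6.49, 7.11 and 6.44, where E073+ alone had 3.67, 3.84 and 3.50 and P010+ alone had 0.789, 0.627 and 0.864. E116-P010+ had 7.18, 7.02 and 6.05, where E116- alone had 1.60, 1.01 and 1.26. Against the larger of both fragments alone, the 23 pairs had a median difference of 1.11, and 19 were higher and 0 lower. Over all members, 74 pairs were higher and 261 lower than the larger fragment, beside 25.1% of the mix called, 3.99% higher and 21.1% lower (limma, Benjamini-Hochberg). Without any 1 replicate, 0 pairs passed in that comparison.

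The M6pr promoter on the plus strand differed little from its level alone beside the same cCREs. E073+P001+ had 5.56, 5.42 and 4.81 against 4.69, 4.51 and 3.91 for P001+ alone, a log2 difference of 0.27 ± 0.03 (SD, n = 3; adjusted p = 0.117, limma). E064-P001+ had 6.91, 7.14 and 5.93, a difference of 0.61 ± 0.05 (adjusted p = 0.0391, limma), and E064+P001+ had 0.54 ± 0.06 (adjusted p = 0.0428, limma). On the minus strand, where the fragment was weak, E074+P001- had 2.01, 2.87 and 2.05 against 0.333, 0.278 and 0.415, a difference of 2.76 ± 0.55 (adjusted p = 0.0314, limma). The mean difference with P001+ was below that with the other promoters by 3.73 ± 1.10 for E073, 3.18 ± 1.12 for E074, 2.77 ± 0.92 for E064, 2.07 ± 0.99 for E090 and 2.08 ± 0.82 for E116 (SD, n = 3). In activity, the M6pr and Nanog pairs with active cCREs ended near each other. With both orientations of each promoter pooled, the medians were 5.65 over 8 pairs of 5 cCREs and 5.13 over 23 pairs of 9 cCREs. The deviation of a pair from its cCRE's mean with other promoters was tested for 1201 members. It passed for 0 (0.00% of the mix), with 293 at an unadjusted p under 0.05 by limma. With the Nanog pairs alone in the fit, 10 deviated upward and 3 downward, the 3 being E074+P001+, E073+P001+ and E064-P001+.

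Beside weak promoters, meaning all but P001 and P010, cCREs active alone gave pairs mostly above the promoter alone and below the cCRE alone. These pairs came from 13 cCREs, against 9 with the Nanog promoter and 5 with M6pr, so the groups run over unlike sets of cCREs. In 187 pairs of an active cCRE with a promoter other than P001 and P010, the median difference from the promoter alone was 3.15 and 131 were higher. The median activity was 0.937. Against the cCRE alone, the median difference was -1.32, with 116 lower and 1 higher. Over all members, 195 were higher and 233 lower than the cCRE alone, beside 49.9% of the mix called, 42.2% higher and 7.65% lower (limma, Benjamini-Hochberg). With the Nanog promoter, 13 of 23 such pairs were higher and 0 lower than the cCRE alone. Against the linear sum of both fragments alone, 56 members were higher and 898 lower, beside 65.6% of the mix called. Without replicate 1, 0 were higher and 0 lower than the sum, without replicate 3 25 were higher and 460 lower, and with replicates unpaired 176 were lower. Without replicate 1, 131 were higher and 45 lower than the cCRE alone, and unpaired 109 were lower. The sum of a pair of fragments near the lowest level counts that level once for each fragment.

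**Figure D4:**
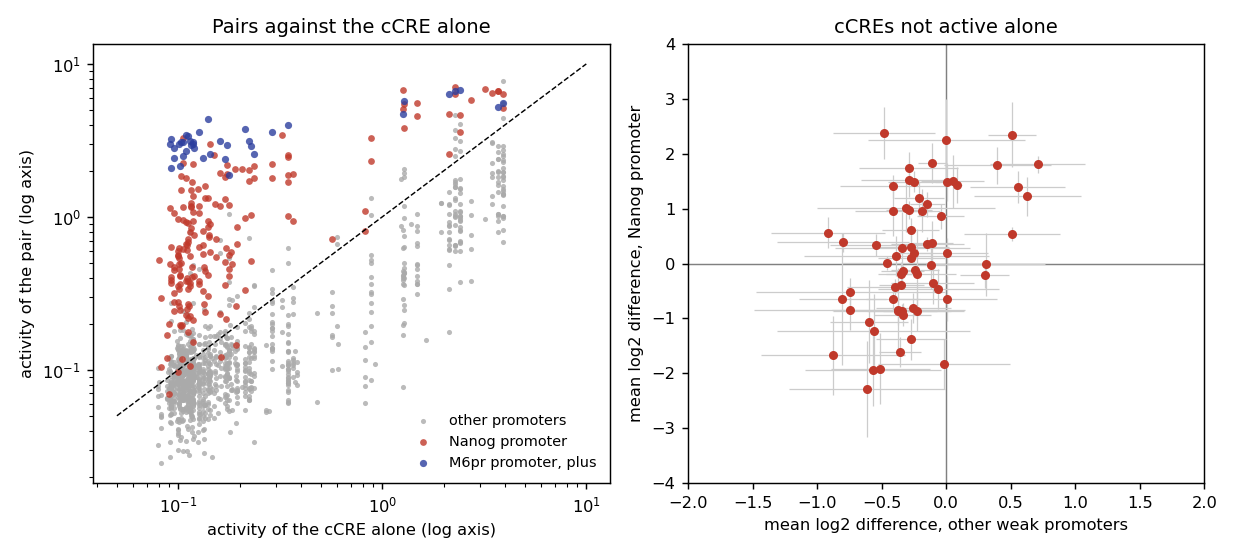
Left, activity of each member (y axis, log scale) against its cCRE alone (x axis, log scale), geometric means of 3 replicates, with the dashed line at equality; pairs of active cCREs with the Nanog promoter have a median of 5.13 and with other weak promoters of 0.937. Right, mean log2 difference of each of 67 cCREs not active alone with the Nanog promoter (y axis) and with promoters other than those of Nanog and M6pr (x axis), with bars of 1 SD over 3 replicates; 18 cCREs reach 1 with the Nanog promoter and 0 with the mean over the others.

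Pairs of cCREs not active alone in the orientation used spread widely beside the Nanog promoter, in both directions. E134 and E031 entered here through E134- and E031+, while E134+ and E031- were active alone. In 161 such pairs, 37 were higher and 20 lower than P010 alone, with a median difference of 0.08. Beside the weak promoters, 17 of 835 were higher and 10 lower. Of 67 cCREs of this kind measured with both kinds of promoter, 18 had a mean difference of 1 or more and 9 of -1 or less with the Nanog promoter. With the weak promoters, 0 reached either value, but that mean runs over several promoter fragments and the Nanog value over 1. Some of the 18 were above the lowest level alone, such as E134- (0.382, 0.274 and 0.460) and E043+ (0.406, 0.225 and 0.453). Others were near it, such as E075+ (0.113, 0.0479 and 0.237). With single weak promoters E120 reached 2.52 (P007) and 1.69 (P004), E088 1.86 (P014), and E080 -1.79 (P017) and -1.62 (P007). Pairs of such cCREs with weak promoters had a median activity of 0.0911, near the weak promoters alone.

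The highest of these was E137-P010-, with 2.64, 3.43 and 3.01 against 0.451, 0.341 and 0.522 for P010- alone and 0.154, 0.0742 and 0.256 for E137- alone. That was a log2 difference of 2.80 ± 0.46 (SD, n = 3; adjusted p = 0.0314, limma). E137 averaged 2.39 ± 0.48 with the Nanog promoter and -0.48 ± 0.39 over 8 pairs with 3 weak promoters. E043 averaged 2.35 ± 0.59 and 0.51 ± 0.18, E113 2.25 ± 0.75 and -0.00 ± 0.61, and E017 1.83 ± 0.36 and -0.11 ± 0.11. Some orientations of a cCRE had unlike values with the same oriented promoter, though none of these differences passed. E096+P010+ had 3.80, 2.95 and 3.15, while E096-P010+ had 0.935, 0.633 and 0.749. E057-P010- had 1.91, 2.20 and 2.01, while E057+P010- had 0.325, 0.262 and 0.431. The number of barcodes behind each of these constructs is unknown, and its part in the spread was not tested.

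Lower pairs were mostly with the 2 most active promoter fragments. Of the 42, 14 were among 87 pairs with P010+, 6 among 97 with P010-, 12 among 39 with P001+ and 0 among 11 with P001-. The other 10 were with weak promoters, among 835 pairs with cCREs not active alone. Of the 42, 0 had a cCRE active alone. Most weak promoters were near the lowest level alone, and the part of this in the counts was not tested. The 42 came from 29 cCREs, and 7 of those also had a higher pair. The lowest was E062-P010+, with 0.170, 0.0518 and 0.196 against 0.789, 0.627 and 0.864 for P010+ alone, a log2 difference of -2.65 ± 0.82 (SD, n = 3; adjusted p = 0.0388, limma). E080-P007+ differed by -2.33, E080-P010+ by -1.94, E117+P010+ by -1.94 and E110+P010+ by -1.91. Beside M6pr, 42 pairs with cCREs not active alone had a median difference of -0.51, with 12 lower and 0 higher.

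Averaged over promoters, the lower cCREs were shifted by less and unevenly between replicates. The 22 had mean differences from -1.17 to -0.42, with medians of -0.68, -0.89 and -0.31 in replicates 1, 2 and 3. The lowest were E020 inside Rimklb at -1.17 ± 0.70, E110 near C3ar1 at -0.92 ± 0.77, E062 near Dppa3 at -0.90 ± 0.68, E117 near Clec4a1 at -0.84 ± 0.52 and E009 near Phc1 at -0.81 ± 0.50 (SD, n = 3). E062 lies at chr6:122659538-122659988, between Dppa3 and Nanog, at -47.7 kb from the Nanog start and near the strong E064. Without replicate 1 the lower cCREs numbered 2, without replicate 2 11 and without replicate 3 19. E020, E110, E062 and E009 lost their call without replicate 1, and E110 also without replicate 2. The 8 cCREs with the highest means kept theirs without each replicate.

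The orientation of the cCRE made a difference that passed for a few cCREs. Between orientations of a cCRE with the same oriented promoter, 0 of 353 comparisons passed (0.00% of the mix) and 93 had an unadjusted p under 0.05 by limma. Averaged over promoters, a comparison added after seeing the data, 4 of 53 cCREs passed, beside 5.22% of the mix, and 0 passed without any 1 replicate. E134+ alone had 2.62, 2.67 and 2.93, and E134- had 0.382, 0.274 and 0.460. Upstream of 4 promoter fragments, plus exceeded minus by 2.54 ± 0.66 (log2; SD, n = 3; adjusted p = 0.0362, limma), in 6 of 6 pairs. E074+ alone had 4.01, 4.02 and 3.70, and E074- had 2.51, 2.45 and 2.29. Upstream of 15 promoter fragments, plus exceeded minus by 0.68 ± 0.01 (adjusted p = 0.0344, limma), in 25 of 26 pairs. E064 went the other way in pairs, by -0.92 ± 0.15 over 11 promoter fragments (adjusted p = 0.0344, limma), and plus was higher in 2 of 19 pairs. Alone, its orientations were close, with 2.08, 2.21 and 2.11 on plus and 2.17, 2.29 and 2.39 on minus. The fourth, E090, rests on 1 comparison with 1 promoter, at -2.20 ± 0.33.

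Pairs with active cCREs also differed between the orientations of the promoter. This was a description added after seeing the data, with no test, over fragments with at least 2 such oriented cCREs in both promoter orientations. With the Clec4a1 promoter P017, plus exceeded minus by 2.29, 2.45 and 1.32 (log2), a mean of 2.02 ± 0.61 (SD, n = 3), in 6 of 6 cCREs, while alone the orientations differed by 0.16 ± 0.13. With P025 of Clec4e, whose gene lies on minus, plus was below minus by values of -0.96, -1.13 and -0.71, in 8 of 8 cCREs, while alone the difference was -0.03 ± 0.06. With P014 of C3ar1, also on minus, it was -1.56 ± 0.31 over 2 cCREs. With the Nanog promoter, on plus, it was 0.39 ± 0.08 over 10 cCREs, 10 of them higher on plus, beside 0.80 ± 0.08 alone. P003 at 1700063H04Rik, on plus, had 0.32 ± 0.12 over 5. Alone, P003 differed by 0.73 ± 0.60 and P014 by -0.33 ± 0.21. With P007 of Apobec1, whose gene lies on minus, plus exceeded minus by 1.68 ± 0.33 over 2 cCREs, beside 1.18 ± 0.63 alone. So plus and minus differed in the direction of the gene for 5 of these 6 fragments. For Nanog, P003 and P014 they also did so alone, and for Nanog and P003 by more on average than beside active cCREs. Fragments that hold no listed gene start also differed. P004 did so by 1.57 ± 0.17 over 6 cCREs and P016 by -0.20 ± 0.03 over 14. P023 differed by 0.48 ± 0.10 over 12 and P022 by 0.36 ± 0.29 over 9. P023 and P022 hold an end coordinate of Clec4n and Clec4b2, and their direction was not compared with that of those genes. The strand sign of a fragment was taken as the genome strand.

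**Figure D5:**
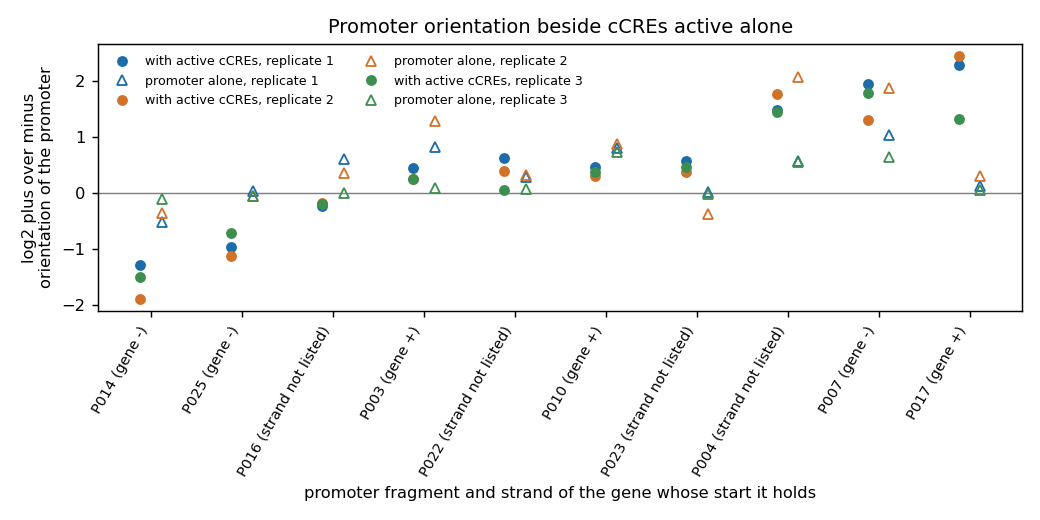
Log2 difference between the plus and minus orientation of promoter fragments beside the same oriented cCREs active alone (filled circles, mean over cCREs) and alone (open triangles), by replicate, with the strand of the gene whose start the fragment holds. P017 is at 2.02 and P025 at -0.93 on average beside active cCREs, and both are near 0 alone.

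The order of the fragments was compared for 647 members whose oriented fragments were also measured with the promoter first and the cCRE next to the reporter. The order with the cCRE first was higher in 46 and lower in 112, beside 47.5% of the mix called, 42.2% higher and 5.31% lower (limma, Benjamini-Hochberg). With the Nanog promoter, 35 of 138 were higher with the cCRE first and 9 lower. With promoters other than those of Nanog and M6pr, 6 of 501 were higher and 103 lower, 70 of them among 107 pairs with active cCREs. With the Nanog pairs alone in the fit, 8 were higher and 29 lower.

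Averaged over cCREs, the 13 promoter fragments with at least 10 cCREs had mean differences between -0.30 and 0.67. Of these, 7 had a mean difference above 0 that passed by limma with Benjamini-Hochberg adjustment and 1 below, beside 45.7% of the mix called, 20.0% higher and 25.7% lower. They included Apobec1 (0.67 ± 0.07), C3ar1 (0.62 ± 0.08), Clec4a1 P017 (0.49 ± 0.23), Clec4e (0.49 ± 0.16), Nanog (0.46 ± 0.14) and P004 near Rimklb (0.35 ± 0.12; SD, n = 3). M6pr was lower, at -0.30 ± 0.07 over 32 cCREs, but not called without replicate 1, 2 or 3, and it was at 0.035 with the median construct as baseline. These means run over unlike sets of cCREs, such as 12 for C3ar1, 23 for Apobec1, 74 for Nanog and 86 for P016. No adjustment was made for this. The Dppa3 promoter P009 entered 1 pair, E074+P009-, at 4.43 ± 2.21 (adjusted p = 0.0665, limma). With the median over cCREs in place of the mean, 0 promoters were higher, C3ar1 was at -0.18 and P004 at -0.059, and without replicate 1 or replicate 3 none was.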

How the data were processed

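The deposited activities are linear ratios of cDNA to pDNA barcodes that the authors computed per construct and replicate. Bowtie2 and mm10 are named in the submitters' processing notes; versions, barcode filters and the scale that sets 1 are not given in the sources used here. Columns for the 3 cDNA replicates of the Klf2, Nanog and negative control mix were used, for each construct and for its fragments alone. Log2 differences were taken within a replicate, which pairs values of 1 transfection. Over members, the deviations of pair and promoter alone had a median correlation of 0.94 over replicates. Each correlation rests on 3 values, and it was above 0.1 in 85% of pairs. Differences were tested against 0 with limma 3.58.1 (R 4.3.3), with moderated variances, over all cCRE and promoter pairs of the Klf2 and Nanog loci in the mix, with Benjamini-Hochberg adjustment at 0.05. The pair test was run on simulated data with independent errors for each pair. Real pairs with 1 oriented promoter share its values alone, which the simulation left out. Means per cCRE needed 3 promoter fragments and means per promoter 10 cCREs, orientations averaged first. Named cCREs were the 8 highest and 5 lowest means and those within 10 kb of the Nanog promoter. Named pairs were the 8 highest and 5 lowest that passed with 1 sign in all replicates. Others were named after their values were seen. Members and lists were chosen with earlier results of these data known. Tables and plots used Python 3.11.15, numpy 2.4.6, pandas 2.3.3 and matplotlib 3.10.9. Nearest genes are protein-coding genes of RefSeq GRCm38.p6. The values of 1 promoter fragment are not reported here singly, though it enters the counts.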

Additional observations from a re-analysis of the deposited data

How the results depend on the processing

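Counts are of calls higher and lower. Leaving out 1 replicate gave 0 and 0 for pairs against the promoter alone, against the larger fragment, for cCRE orientation with the same promoter and averaged over promoters, and for deviations; 12 to 13 and 2 to 19 for cCRE means; 0 to 6 and 0 for promoter means; 131 to 207 and 45 to 317 against the cCRE alone; 0 to 37 and 0 to 723 against the sum; and 8 to 33 and 21 to 80 for order. Without the replicate block, lower calls were 14 against the promoter alone, 109 against the cCRE alone, 176 against the sum and 145 against the larger fragment, orientation gave 2 and 8 with the same promoter and 0 and 1 averaged over promoters. With Nanog features alone in the fit, 27 pairs were lower, orientation gave 4 and 3, order 8 and 29 and deviations 10 and 3. With the median construct as baseline, pairs gave 129 and 24, lower cCREs 9 and promoters 4 and 0, and P001 turned to 0.035. With promoters above 0.05 alone, pairs gave 139 and 71, and E075 turned to 0.063. With the median over promoters, 6 cCREs were lower. With the median over cCREs, 0 promoters were higher, and P003 (-0.10), P004 (-0.059), P014 (-0.18), P016 (-0.19), P022 (-0.078) and P023 (-0.082) turned. With zeros kept at a pseudocount of 0.01, P022 turned to -0.0004. The cause was not tested. The other 61 counts stayed within 1.5 times. Comparisons with the larger fragment, orientation over promoters and the active class were chosen after seeing the data. Limits are 3 replicates of 1 plasmid pool, an unknown number of barcodes and a lowest level that differs between replicates.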
